A study of Mus musculus with 2 samples.

Results

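T cells that carry little or no RNA of Cd8a and of the granzymes were examined in single-cell transcriptomes of the mouse colon lamina propria, the connective tissue layer beneath the gut epithelium. Cells were chosen by their own RNA counts, in unique molecular identifiers (UMIs, each standing for 1 captured RNA molecule). A cell was kept if it had 200 to 6000 detected genes and at most 15% mitochondrial UMIs, at least 2 UMIs over Cd3e, Cd3d and Cd3g, fewer than 2 UMIs over Cd8a, Gzma and Gzmb, and no UMI of Cd79a, C1qa, Xcr1 or Clec9a. This selected 154 of 5111 filtered cells. They were 79 of 2597 cells in the wild-type (WT) library, or 3.04% (exact 95% binomial interval 2.42% to 3.78%), and 75 of 2514 cells in the knockout (KO) library, or 2.98% (2.35% to 3.73%).

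Each genotype was represented by 1 library, so no test between genotypes was possible, and every interval covers counting error only. The KO mice are deficient in lncLy6c, a long non-coding RNA gene given as LncRNA17Rik in the labels, deleted with CRISPR-Cas9 by cuts on both sides of the gene on a C57BL/6J background. The study describes pooled samples of 8-week-old male mice, and the labels give the cells of both libraries as cd11b+, from gut lamina propria, stained with 7-AAD to mark dead cells. The shares of T cells given here are therefore shares of cells labelled cd11b+, not of the cells of the colon. No annotated gene carried the label's name, and the lncRNA gene 1700016P04Rik had 0 UMIs in the filtered cells of both libraries, so the deletion could not be checked from these counts.

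T cells recognise antigen through a receptor built from an alpha and a beta chain, or from a gamma and a delta chain, which signals through the CD3 subunits and kinases such as Lck and Zap70. In the colon, CD4 T cells include regulatory cells that hold back inflammation through Foxp3, Ctla4 and Il10, and helper cells that make the cytokines Ifng or Il17a. Some of these cells settle in the tissue for long periods, held by integrins such as CD103 (Itgae), while others recirculate through lymph and blood with the help of S1pr1 and Ccr7.

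The selected cells held 386417 UMIs in WT and 472609 in KO. A WT cell had 4094 UMIs at the median (range 2141 to 18653) and a KO cell 5754 (2166 to 18932), and medians of 1600 and 1863 genes were detected. The KO library was the deeper one, so shares of cells with a UMI are given after each cell was thinned at random to 1000 UMIs, which left out none of the selected cells. No cell barcode of a selected cell occurred in both libraries. Levels are UMIs summed over the cells of a library per 1000000 UMIs (CPM) with exact Poisson 95% intervals, and KO to WT ratios are on the log2 scale with exact 95% intervals. A summed level does not separate fewer cells with a gene from less RNA per cell, which is why cells are counted beside it.

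The T cell label was checked against receptor genes that the choice did not use. A UMI of the alpha or beta constant genes Trac, Trbc1 or Trbc2 was found in 78 of 79 WT and 74 of 75 KO cells. After thinning, such a UMI remained in 72.2% of WT cells (60.9% to 81.7%) and 80.0% of KO cells (69.2% to 88.4%). The same share was 0 in Ms4a1 B cells of both libraries (median depth 3839 and 4746 UMIs), and 0 in WT and 0.8% in KO C1qa macrophages (5586 and 9644.5 UMIs). These comparison cells were chosen to have no CD3 UMI, so their low share was partly set by the choice. Thinning left out 1 KO B cell and 29 WT and 10 KO macrophages. Trac itself had 146 UMIs in 54 WT cells and 200 UMIs in 60 KO cells, which is 378 CPM (319 to 444) and 423 CPM (367 to 486). The cells just inside the CD3 limit, with exactly 2 UMIs, all had a receptor UMI (10 of 10 in WT and 7 of 7 in KO). Just outside it, at 1 CD3 UMI, 6 of 15 WT and 6 of 20 KO cells had one. At the other limit, cells with 1 UMI of Cd8a, Gzma or Gzmb numbered 15 in WT and 11 in KO, of which 9 and 2 held an Itgae UMI, against 11 of 64 and 5 of 64 cells with none. Itgam, which encodes the CD11b protein named by the labels, had UMIs in 3 WT and 4 KO cells, 5 and 9 UMIs in all.

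The co-receptor makeup was mixed. Cd4, the co-receptor for MHC class II, had 44 UMIs in 26 WT cells, 114 CPM, and 33 UMIs in 17 KO cells, 69.8 CPM, with a log2 ratio of -0.71 (-1.40 to -0.02). After thinning, 8.86% of WT cells (3.64% to 17.4%) and 6.67% of KO cells kept a Cd4 UMI. C1qa macrophages, which can express Cd4 themselves in the mouse, gave 2.0% and 4.2%. A UMI of Cd8a or Cd8b1 without Cd4 was seen in 9 WT and 12 KO cells, no cell had UMIs of both co-receptors, and 44 WT and 46 KO cells had neither. The absence of a Cd4 UMI at this depth does not show the absence of Cd4. Trdc, the delta chain constant gene, was found in 9 WT and 8 KO cells, and 8 of them in each library also held an alpha or beta UMI. Cd163l1, known as a marker of gamma-delta T cells that make IL-17, was found in 4 WT cells, all with Trdc, and in 7 KO cells, of which 6 had Trdc. Foxp3, the master factor of regulatory T cells, had 13 UMIs in 6 WT cells and 9 UMIs in 5 KO cells. After thinning, a Foxp3 UMI remained in 1 of 79 WT and 0 of 75 KO cells.

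**Figure D1:**
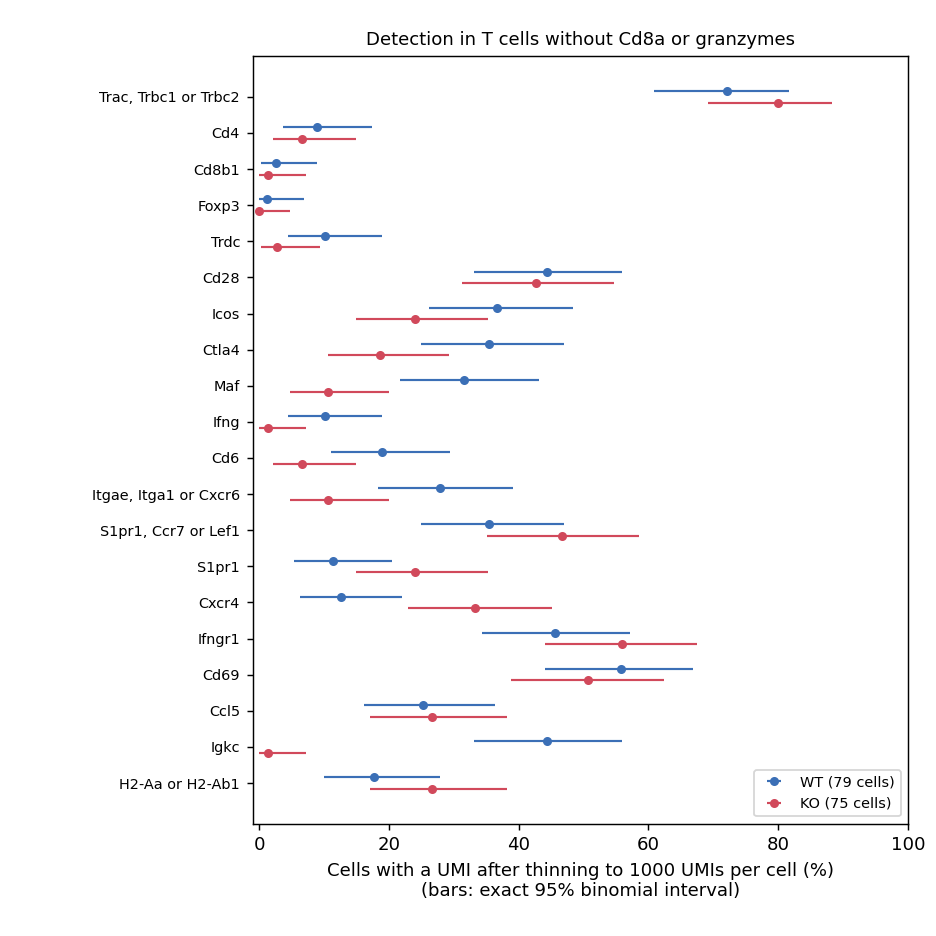
Share of the selected T cells with at least 1 UMI of each gene or gene group after thinning to 1000 UMIs per cell, in percent on the horizontal axis, for the WT library (79 cells) and the KO library (75 cells), with bars for exact 95% binomial intervals. Receptor genes were found at 72.2% and 80.0%, Ctla4 at 35.4% and 18.7%, and Cxcr4 at 12.7% and 33.3%.

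The receptor itself was at like levels in both libraries, while several genes of the signalling apparatus were lower in KO. Over all genes with at least 20 UMIs, 4866 were compared, and the median log2 KO to WT ratio was -0.19. Of these, 3.58% were at least 2-fold higher and 9.56% at least 2-fold lower in KO (174 and 465 genes, with a prior of 1 CPM). Scaling by TMM (trimmed mean of M values) in place of total UMIs shifted the median to 0.01 and the counts to 283 higher and 291 lower. The excess of lower genes thus depended on the scaling. List medians are read against -0.19, and list counts against 9.56% lower and 3.58% higher. Of the 7 receptor chain genes, 1 was past 2-fold, with a list median of 0.10. The beta constant genes were slightly higher in KO (Trbc1 log2 ratio 0.32, 0.05 to 0.58, and Trbc2 0.36, 0.14 to 0.59), and Tcrg-C2 of the gamma chain was lower (20 and 10 UMIs, -1.29, -2.55 to -0.13). Without the cells with any UMI of Cd8a, Cd8b1, Gzma, Gzmb or Gzmk, Tcrg-C2 was within 2-fold (-0.62). None of the 6 compared CD3 and co-receptor genes was past 2-fold, and the CD3 genes were used in choosing the cells.

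In the list of receptor signalling genes, 5 of 25 compared genes were at least 2-fold lower in KO, beside 9.56% of all compared genes. None was at least 2-fold higher, and the median was -0.49. Cd6, a scavenger receptor family protein that binds ALCAM and modulates receptor signalling, had 82 UMIs in 34 of 79 WT cells and 24 UMIs in 13 of 75 KO cells. Its level was 212 CPM in the WT library (169 to 263) and 50.8 CPM in the KO library (32.5 to 75.6), for a ratio of -2.06 (-2.78 to -1.39) on the log2 scale. The related damper of signalling Cd5 differed the same way, from 150 to 63.5 CPM (-1.24, -1.93 to -0.58). The exchange factor Vav1 had 30 and 12 UMIs (-1.61, -2.71 to -0.60), and Sh2d1a, an adaptor of SLAM family receptors, had 16 and 9 UMIs, with an interval that included 0 (-2.48 to 0.14). Zap70, the kinase recruited to the CD3 chains, was at 163 and 80.4 CPM (-1.02, -1.64 to -0.42). Zap70 stayed past 2-fold in 8, Sh2d1a in 11 and Vav1 in 14 of 16 alternative settings. With TMM scaling, Zap70 and Sh2d1a were at -0.82 and -0.89. Lck, the kinase upstream of Zap70, was at 197 and 148 CPM with an interval that included 0 (-0.90 to 0.08). In all, 20 of the 25 genes had a ratio below 0, as did 3078 of all 4866 compared genes. Among those within 2-fold, the Src family kinase Fyn was at 546 and 292 CPM (-0.90, -1.22 to -0.59), and the adaptors Lat and Lcp2 were at -0.86 (-1.27 to -0.47) and -0.89 (-1.49 to -0.29). Ptprc, which encodes CD45, was at 1449 and 1439 CPM (-0.01, -0.17 to 0.15), and the phosphatase gene Ptpn22 was at 476 and 556 CPM (0.22, -0.05 to 0.50).

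Among costimulatory and inhibitory receptors, the neighbours Ctla4 and Icos on chromosome 1 were both lower in KO. Ctla4 (chr1:60887000-60915832, plus strand, GRCm38) encodes an inhibitory receptor that competes with CD28 for its ligands. It had 0 to 45 UMIs per cell in WT, with a median of 1, and 0 to 37 in KO, with a median of 0. The sum was 427 UMIs in 42 WT cells and 150 UMIs in 19 KO cells, so the ranges overlapped but fewer KO cells carried any. Summed Ctla4 RNA stood at 1105 CPM in WT (1003 to 1215) and at 317 CPM in KO (269 to 372), with a log2 ratio of -1.80 (-2.08 to -1.53). After thinning, 35.4% of WT (25.0% to 47.0%) and 18.7% of KO cells (10.6% to 29.3%) had a Ctla4 UMI, against 6.43% and 3.23% of Ms4a1 B cells. Icos (chr1:60977927-61000320), a costimulatory receptor of helper and regulatory T cells, was at 673 and 286 CPM (-1.24, -1.55 to -0.93). Both genes were found together in 34 of the 42 WT cells and 16 of the 19 KO cells with Ctla4, while Icos was in 47 of all 79 WT and 31 of all 75 KO cells. Cd28 (chr1:60716800-60773359), the receptor next to them, was less apart, at 815 and 599 CPM (-0.45, -0.68 to -0.21), and its thinned shares were 44.3% and 42.7%.

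Lag3, an inhibitory receptor that binds MHC class II, had 42 UMIs in 15 WT cells and 4 UMIs in 3 KO cells (-3.68, -5.62 to -2.22). Cd160, a receptor for HVEM, was at 101 and 44.4 CPM (-1.18, -2.02 to -0.38), within 2-fold with TMM scaling (-0.97), and Nt5e, which encodes the adenosine-forming enzyme CD73, at 168 and 106 CPM (-0.67, -1.23 to -0.11). In all, 3 of 5 compared inhibitory receptors were at least 2-fold lower and none was higher. Pdcd1, encoding PD-1, stayed under the limit for comparison, with 4 UMIs in 2 WT cells and 14 UMIs in 10 KO cells. The costimulatory receptors of the TNF receptor family were near the median of all genes, with Tnfrsf4 at -0.31 (-0.79 to 0.17), Tnfrsf9 at 0.19 (-0.28 to 0.65) and Tnfrsf18 at 0.17 (-0.37 to 0.72). Of the 11 compared costimulatory genes, 2 were at least 2-fold lower, Icos and Cd40lg, the latter with 19 and 7 UMIs. Beside both list counts stands the 9.56% of all compared genes that were at least 2-fold lower.

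**Figure D2:**
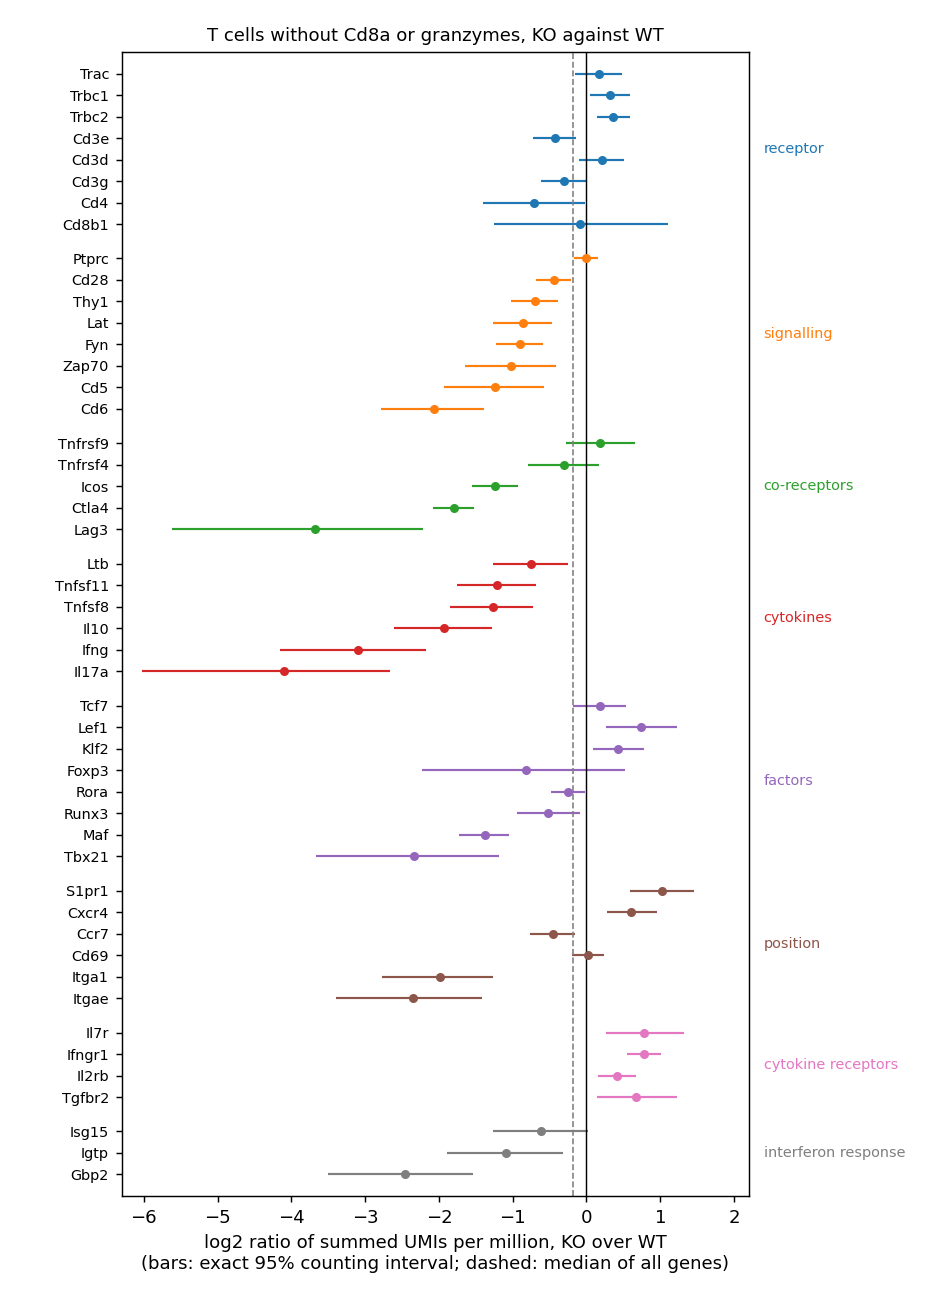
log2 KO to WT ratio of CPM for genes of 8 roles in the selected T cells, with exact 95% counting intervals. The solid line marks 0 and the dashed line the median of all compared genes, -0.19. Lag3, Ifng and Il17a lie farthest to the left, and S1pr1, Il7r and Ifngr1 lie to the right of 0.

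Cytokine genes were the list with the lowest median among the T cell lists. Of 9 compared genes, 6 were at least 2-fold lower in KO, beside 9.56% of all compared genes. None was higher, and the median was -1.26. Ifng, the defining cytokine of type 1 helper cells (chr10:118441046-118445892), had 77 UMIs in 19 WT cells and 11 UMIs in 7 KO cells. The highest single cell held 24 UMIs in WT and 2 in KO. Ifng RNA summed to 199 CPM in WT (157 to 249) and to 23.3 CPM in KO (11.6 to 41.6). The log2 ratio was -3.10 (-4.16 to -2.18), or -2.79 with the highest cell of each library left out and a prior of 1 CPM. Thinned shares were 10.1% (4.47% to 19.0%) and 1.33% (0.0338% to 7.21%), against 0 in Ms4a1 B cells of both libraries, and 8 of the 19 WT cells with Ifng also had a Cd4 UMI. Tbx21, encoding the type 1 factor T-bet, had 33 and 8 UMIs (-2.33, -3.66 to -1.19), and Fasl, a death ligand, 37 and 8 UMIs (-2.50, -3.81 to -1.37). Not every gene of the type 1 list went this way. Ccl5, the most abundant of them, was at 1467 and 1638 CPM (0.16, 0.00 to 0.32), and Il18rap at 54.3 and 63.5 CPM.

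Il17a, the type 3 cytokine that recruits neutrophils and supports the barrier (chr1:20730905-20734496), rested on few cells. There were 56 UMIs in 9 WT cells, with 27 in the highest cell and 83.9% of the UMIs in 3 cells, against 4 UMIs in 1 KO cell. The log2 ratio was -4.10 (-6.02 to -2.66). The counting interval does not cover the chance of sampling so few producing cells. All 9 WT cells with Il17a and the 1 KO cell also held Rora, a factor of type 3 cells. Rora was common, in 52 of all 79 WT and 35 of all 75 KO cells. Trdc was held by 2 of the 9 WT cells and by the 1 KO cell. Il17f had 8 UMIs in 1 WT cell and none in KO (exact 95% interval 0 to 7.81 CPM), and Il22 had 12 and 4 UMIs. Other type 3 genes did not follow Il17a. Tmem176a was at 54.3 and 118 CPM (1.12, 0.38 to 1.92) and Tmem176b at 41.4 and 97.3 CPM (1.23, 0.39 to 2.15), while Rora was at 800 and 675 CPM (-0.24, -0.47 to -0.01). Without the 3 cells with many UMIs of other cell types described below, Tmem176a and Tmem176b were not past 2-fold (0.85 and 1.00, prior of 1 CPM).

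Il10, an anti-inflammatory cytokine of regulatory and other helper cells, had 84 UMIs in 11 WT cells and 27 UMIs in 7 KO cells (-1.93, -2.61 to -1.29). Its thinned shares were 8.86% and 4.0%, against 1.43% and 0 in Ms4a1 B cells and 27.6% and 33.9% in C1qa macrophages, which make Il10 themselves. With a limit of 1 CD3 UMI in place of 2, the Il10 ratio was -1.10 (prior of 1 CPM). In WT, 9 of the 11 cells with Il10 also had Ctla4, and 2 of them had Foxp3, and in KO the counts were 5 and 2 of 7. Ctla4 was found in 42 of all 79 WT and 19 of all 75 KO cells. Maf, a factor that drives Il10 and helper cell programmes, was at 600 CPM in 39 WT cells and at 231 CPM in 26 KO cells (-1.38, -1.72 to -1.05). Its thinned shares were 31.6% (21.6% to 43.1%) and 10.7% (4.72% to 19.9%), against 2.14% and 0 in Ms4a1 B cells and 15.4% and 19.1% in C1qa macrophages, which express Maf too. Tnfsf8, the ligand of CD30, and Tnfsf11, which encodes RANKL, were at log2 ratios of -1.27 (-1.84 to -0.72) and -1.21 (-1.75 to -0.69). With the deepest 5% of cells removed, Tnfsf8 was within 2-fold (-0.76). The type 2 cytokines were close to absent, with 1 UMI of Il4 in each library and none of Il5 or Il13 in either.

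**Figure D3:**
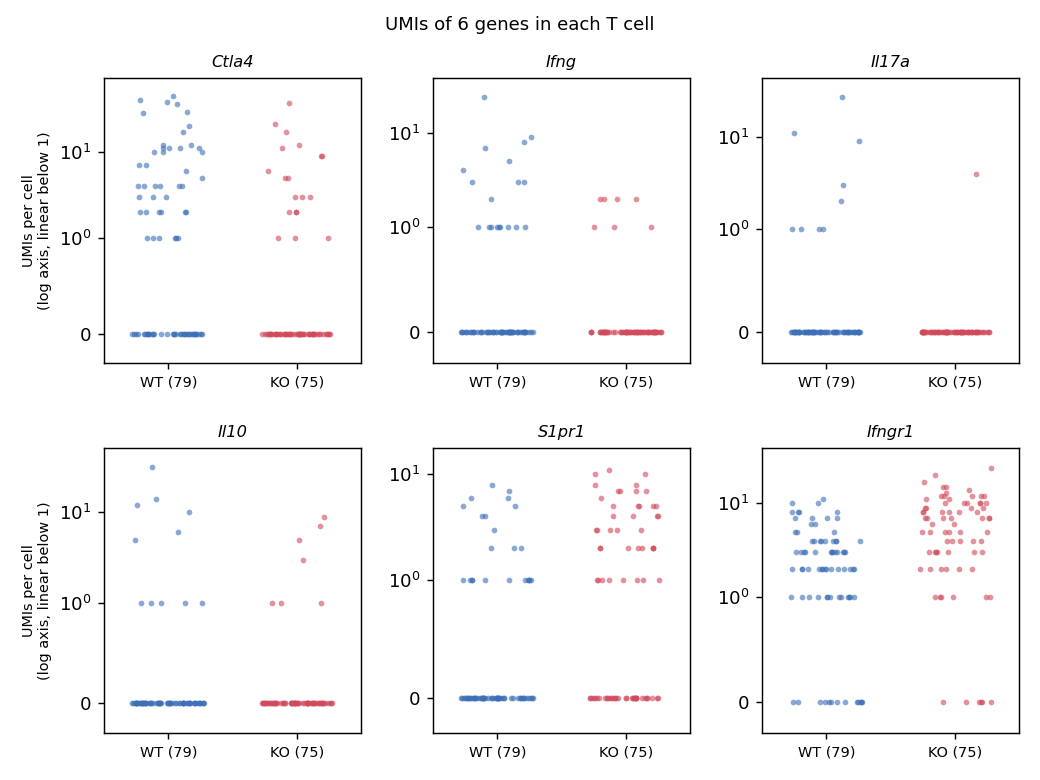
UMIs of Ctla4, Ifng, Il17a, Il10, S1pr1 and Ifngr1 in each selected T cell, 79 WT and 75 KO, on a logarithmic vertical axis that is linear below 1; points are spread sideways at random. The highest cell held 45 UMIs of Ctla4 in WT and 37 in KO, 24 and 2 of Ifng, and 27 and 4 of Il17a.

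Regulatory T cell genes were split. Of 14 compared genes of the list, 4 were at least 2-fold lower in KO, beside 9.56% of all compared genes. None was higher, and the median was -0.51. The 4 were Ctla4, Il10, Icos and Izumo1r, the folate receptor 4 gene, which had 55 and 15 UMIs (-2.16, -3.10 to -1.32). Ikzf2, which encodes Helios, was at 665 and 793 CPM (0.25, 0.02 to 0.49), and Il2ra, the high-affinity interleukin 2 receptor chain, had 27 and 21 UMIs, with an interval that included 0 (-1.55 to 0.22).

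Within each library, the cells with a Foxp3 UMI (6 of 79 and 5 of 75) were set beside the other selected cells. The genes were ranked by the lower of the 2 libraries' log2 ratios, so those named were chosen by these values. The first were Tnfrsf18, which encodes GITR (489 against 94.4 CPM in WT and 764 against 121 CPM in KO), and Tnfrsf9, which encodes 4-1BB (816 against 112 and 764 against 179 CPM). Nt5e, Il6st, Mxi1, Ddi2, Arid5b, Emsy, the carboxypeptidase M gene Cpm, and Tnfrsf4 completed the first 10. Ctla4 was at 3099 CPM in the WT Foxp3 cells (2556 to 3723) and at 4073 CPM in the KO Foxp3 cells (3230 to 5069), with intervals that overlapped. The other cells had 895 and 155 CPM, from 313 and 70 UMIs. Il10 was at 299 and 209 CPM in WT and 509 and 37.5 CPM in KO in the Foxp3 cells and the others. With cells of at least 2 Foxp3 UMIs only, 4 of the 10 genes remained among the first 10.

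Of the genes of tissue residence Itgae and Itga1 were lower in KO, and of the genes of recirculation S1pr1 was higher. Itgae (chr11:73090583-73147446), the integrin chain that binds E-cadherin on epithelium, had 50 UMIs in 20 WT cells and 12 UMIs in 7 KO cells (-2.35, -3.39 to -1.42). Itga1, the collagen-binding chain of VLA-1, was at 176 and 44.4 CPM (-1.99, -2.77 to -1.26). Either of them or Cxcr6 was found in 27.8% of WT cells (18.3% to 39.1%) and 10.7% of KO cells (4.72% to 19.9%) after thinning, against 0 in Ms4a1 B cells, and in 38 WT and 26 KO cells before it. Without the cells that had any UMI of Cd8a, Cd8b1, Gzma, Gzmb or Gzmk, which left 59 WT and 58 KO cells, Itga1 was within 2-fold (-0.99) and Itgae was not (-1.82, both with a prior of 1 CPM). Of the 12 compared genes of the list, 9 had a ratio below 0, beside 3078 of 4866 over all genes. Rgs1, a regulator of chemokine receptor signalling, was at 1488 and 1001 CPM (-0.57, -0.75 to -0.39), and the factor Bhlhe40 at 582 and 372 CPM (-0.64, -0.94 to -0.35). Cd69 was at 802 and 813 CPM (0.02, -0.20 to 0.24), and Itgb7, the partner chain of Itgae, at 220 and 218 CPM (-0.01, -0.44 to 0.42). Xcl1, a chemokine for cross-presenting dendritic cells, was higher in KO at 173 and 277 CPM (0.68, 0.24 to 1.12). However, 3 KO cells held 67 of its 131 KO UMIs, and its thinned shares were 11.4% and 14.7%, with intervals that overlapped. In the list, 2 of the 12 compared genes were at least 2-fold lower and none was higher. Over all compared genes these shares were 9.56% and 3.58%. The median of the list was -0.32.

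S1pr1 (chr3:115710433-115715072), the receptor that guides T cells out of tissue, had 0 to 8 UMIs per cell in WT, with a median of 0, and 0 to 11 in KO, with a median of 1. It had 65 UMIs in 23 WT cells and 161 UMIs in 40 KO cells, which is 168 CPM (130 to 214) and 341 CPM (290 to 398). The log2 ratio was 1.02 (0.59 to 1.46), and it was within 2-fold, at 0.94, without the 3 mixed cells described below. Thinned shares were 11.4% and 24.0%, with intervals that overlapped (5.34% to 20.5% and 14.9% to 35.3%), while C1qa macrophages gave 0.452% and 2.97% and Ms4a1 B cells, which use S1pr1 as well, had it in 32 of 140 and 13 of 62 thinned cells. Lef1, a factor of naive cells, was at 145 and 241 CPM (0.74, 0.26 to 1.22) and Klf2, which drives S1pr1, at 290 and 391 CPM (0.43, 0.09 to 0.79). Their thinned shares were not higher in KO by more than counting error, at 16.5% and 17.3% for Lef1 and 21.5% and 17.3% for Klf2, and no order is read for these genes. Without the cells that had any Cd8 or granzyme UMI named above, Lef1 was at 0.14 and S1pr1 at 0.83, with a prior of 1 CPM. Ccr7, a lymph node homing receptor, did not go with S1pr1, at 494 and 360 CPM (-0.46, -0.77 to -0.15). The recirculation list had 1 of 11 compared genes at least 2-fold higher in KO, S1pr1, beside 3.58% of all compared genes, and a median of 0.18. Cells with UMIs of both kinds, any of S1pr1, Ccr7 and Lef1 and any of Itgae, Itga1 and Cxcr6, were 11 of 79 in WT and 14 of 75 in KO before thinning, among 40 and 55 cells with the first kind and 38 and 26 with the second.

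Of the chemokine and trafficking receptors, Cxcr4, the receptor for CXCL12, was higher in KO, at 290 and 442 CPM (0.61, 0.27 to 0.95), with a UMI in 35 WT and 51 KO cells, and in 12.7% and 33.3% (22.9% to 45.2%) after thinning. C1qa macrophages, which express it too, gave 36.2% and 16.1%, and Ms4a1 B cells 53.6% and 64.5%. In the 15 WT and 6 KO cells with under 2 UMIs of the B cell, myeloid and epithelial marker lists, Cxcr4 was lower in KO (-8.28, with no KO UMI), and Klf2 was at -0.02, both with a prior of 1 CPM. Cxcr3, a type 1 homing receptor, had 22 and 13 UMIs (-1.05), and with TMM scaling it was within 2-fold (-0.83). Ccr4, a receptor of type 2 and regulatory cells, had 4 and 17 UMIs (1.80, 0.18 to 3.83). Ccr9, the small gut homing receptor, had 8 UMIs in WT and 1 in KO.

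None of the 18 compared cytokine receptor genes was past 2-fold. Their ratios were above 0 for 11 genes and below 0 for 7, with a median of 0.20, beside 1788 above and 3078 below over all genes. Ifngr1, the ligand-binding chain of the receptor for interferon gamma, had 0 to 11 UMIs per cell in WT, with a median of 2, and 0 to 24 in KO, with a median of 6. Most cells had it, 66 WT and 69 KO cells, and its level was 611 CPM (535 to 694) and 1045 CPM (955 to 1142), a ratio of 0.78 (0.55 to 1.01) on the log2 scale. Thinned shares were 45.6% and 56.0%, with intervals that overlapped, against 5.0% and 9.68% of Ms4a1 B cells. Il7r, the survival receptor of naive and memory T cells, was at 122 and 209 CPM (0.78, 0.27 to 1.32), and Il2rb at 549 and 730 CPM (0.41, 0.16 to 0.67).

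Several response genes of interferons were lower in KO. Of 11 compared genes, 5 were at least 2-fold lower, beside 9.56% of all compared genes. None was higher, and the median was -0.73. The GTPase genes Igtp and Irgm1 had 40 and 23 UMIs and 19 and 6 UMIs. With TMM scaling Igtp (-0.88) and Stat2 (-0.99) were within 2-fold. Gbp2 had 54 and 12 UMIs (-2.46, -3.50 to -1.54), but 32 of the 54 lay in 1 WT cell, and without the 3 mixed cells described below the ratio was -1.24. It was -0.60 without cells with any Cd8 or granzyme UMI. Isg15 was at -0.62 (-1.27 to 0.02), Rsad2 at -0.37 (-1.42 to 0.67) and Ifit1 at 0.19 (-0.83 to 1.26), all with intervals that included 0.

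Transcription factors of the T lineage mostly lay within 2-fold, with 1 of 20 higher, 2 lower and a median of -0.21. Tcf7, Satb1, Gata3 and Bach2 had intervals that included 0. Runx3 (chr4:135120652-135177990), which directs CD8 and type 1 T cell programmes, had 103 UMIs in 47 WT cells and 88 UMIs in 38 KO cells. Its level of 267 CPM (218 to 323) in WT stood beside 186 CPM (149 to 229) in KO. The difference was -0.52 on the log2 scale (-0.94 to -0.09), and -0.32 with TMM scaling. In C1qa macrophages the Runx3 ratio was -0.86 (-1.04 to -0.68) and in Ms4a1 B cells 0.17 (-0.39 to 0.70). Id3, an inhibitor of E proteins, had 10 and 30 UMIs (1.29, 0.22 to 2.49, or 0.58 without cells with any Cd8 or granzyme UMI and with a prior of 1 CPM), and Runx2 had 35 and 15 UMIs (-1.51, -2.49 to -0.60).

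Genes that T cells switch on within minutes of receptor contact, and that tissue digestion switches on too, were near the median. Of the 14 early genes 1 was past 2-fold, Ifrd1, which was higher in KO at 339 and 681 CPM (1.01, 0.71 to 1.31, or 0.92 without the 3 mixed cells and with a prior of 1 CPM), and the median was -0.21. Of the 18 dissociation stress genes 1 was past 2-fold, Ier3, and the median was -0.03, or 0.17 with TMM scaling. With a prior of 1 CPM, Ier3 was at 1.31, at 0.28 without its highest cells, and at -0.16 with at least 3 CD3 UMIs. Junb, an AP-1 subunit found in all 79 WT and in 73 KO cells, was at 6286 and 3445 CPM (-0.87, -0.96 to -0.78), and Dusp1, a MAP kinase phosphatase, at 818 and 425 CPM (-0.94, -1.21 to -0.68). Hspa8 and Hsp90aa1, which encode chaperones, were at 0.01 (-0.14 to 0.17) and 0.01 (-0.16 to 0.18). Over all compared genes, 9.56% were at least 2-fold lower in KO. Of 6 compared cell cycle genes, 2 were at least 2-fold lower in KO and none was higher, with a median of -0.54. They were Mki67 (22 UMIs in 6 WT cells and 5 UMIs in 3 KO cells, -2.43, -4.19 to -0.99) and Top2a (41 UMIs in 15 and 12 UMIs in 10 cells). Without cells with any Cd8 or granzyme UMI, Top2a was within 2-fold (-0.75, prior of 1 CPM). Hmgb2, a chromatin protein gene that non-dividing cells express too, held 243 of the 508 WT and 295 of the 448 KO UMIs of the list, at 629 and 624 CPM.

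The cytotoxic genes that the choice did not use were present in part. Nkg7 was found in 33 WT and 35 KO cells, at 282 and 205 CPM (-0.46, -0.87 to -0.05), and Klrd1, encoding CD94, in 18 and 26 cells, at 194 and 201 CPM (0.05, -0.40 to 0.51). Klrk1, which encodes NKG2D, had 15 and 41 UMIs (1.16, 0.28 to 2.12). Kit, a marker of innate lymphoid cells, was found in 5 WT and 19 KO cells, every one of them with an alpha or beta receptor UMI. After thinning, it was found in 2 of 79 WT and 5 of 75 KO cells, shares whose intervals overlapped. The whole list of natural killer and innate lymphoid cell genes, 11 with a match, summed to 279 CPM over 34 WT cells and 400 CPM over 48 KO cells, and its 4 compared genes had ratios above 0 with a median of 0.73. Of these, Kit was past 2-fold (1.64, 0.60 to 2.81), and Il7r is also a gene of T cells. The defining genes Ncr1 and Klra8 were at 0 UMIs in both libraries.

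The selected cells were then compared with T cells that had at least 2 UMIs of Cd8a, Gzma or Gzmb under the same other limits. There were 124 of these in WT (4.77% of filtered cells, 3.99% to 5.67%) and 8 in KO (0.318%, 0.137% to 0.626%), so the selected cells were 38.9% of both kinds together in WT and 90.4% in KO. Both libraries are labelled cd11b+, so these shares do not give the makeup of the colon's T cells. How far the choice of cd11b+ cells shaped them was not tested. Since the KO group held 8 cells, levels were compared within WT. As log2 ratios of selected over cytotoxic cells, Tnfsf8 (5.89, 4.29 to 8.19), Ccr7 (5.35, 4.44 to 6.43), Il17a (5.32, 3.70 to 7.64) and Lef1 (3.44, 2.50 to 4.53) were far higher in the selected cells. Cd6 (2.32), Icos (2.24), Tcf7 (2.17), Satb1 (2.13), Maf (1.86) and Cd28 (1.83) were higher too, and Cd4 was at 114 against 30.3 CPM (1.91, 1.17 to 2.68). Lower in the selected cells were Ccl5 (-2.79, -2.91 to -2.66), Itgae (-2.36, -2.81 to -1.94), Cd7 (-2.13), Nkg7 (-2.02) and Trdc (-1.69, -2.27 to -1.15). Ifng did not separate the groups, at 199 and 214 CPM (-0.10, -0.51 to 0.29), nor did Trac (0.01, -0.28 to 0.30). Cd8a, Gzma and Gzmb defined the groups and are not findings. These WT ratios are a description, since both groups came from 1 library. Against the 8 KO cells, Ccl5 went the other way (0.97, 0.59 to 1.37) and Ccr7 had an interval that included 0 (-0.33, -0.88 to 0.25). Cd4 kept the WT direction there, also with an interval that included 0 (1.35, -0.62 to 4.45). The 8 KO cells had 1 Gzma UMI in all, beside 13132 in the 124 WT cells, and 3 of the 8 had a Foxp3 UMI. They also held Cd74 at 7007 CPM and 20 UMIs of Cd209a, a dendritic cell gene. The WT and KO comparison groups thus differed in makeup, and no contrast between genotypes is read from them.

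**Figure D4:**
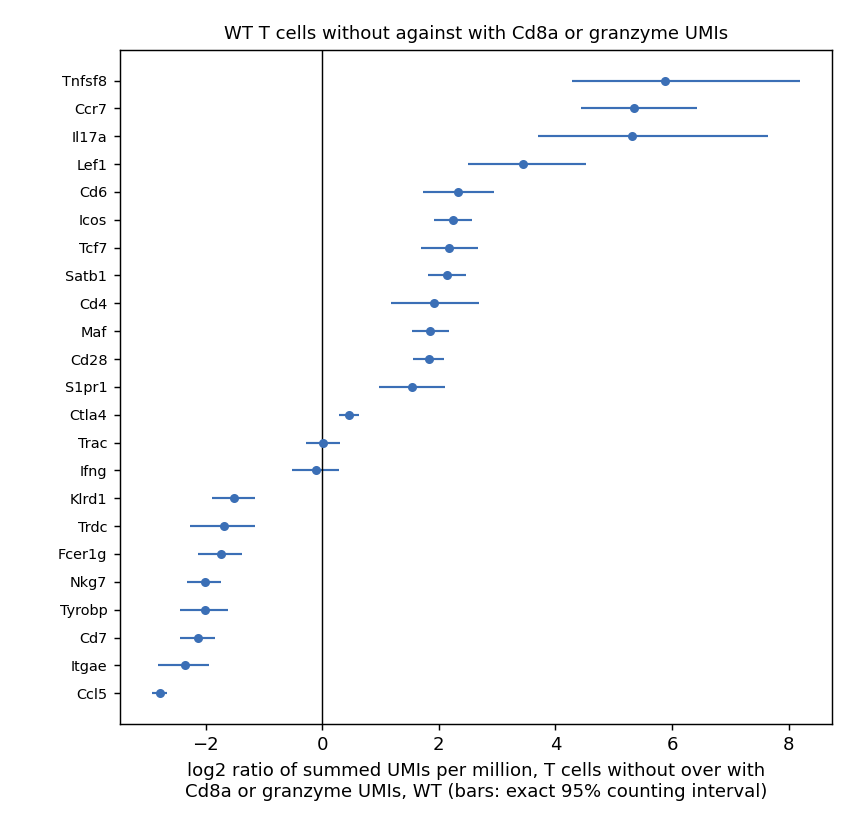
log2 ratio of CPM in the 79 selected T cells over the 124 T cells with Cd8a or granzyme UMIs, both of the WT library, with exact 95% counting intervals. Tnfsf8, Ccr7, Il17a and Lef1 lie farthest to the right and Itgae and Ccl5 farthest to the left, while Trac and Ifng lie near 0.

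RNA of other cell types was present in the selected cells and differed between the libraries. At least 2 UMIs over the B cell, macrophage, dendritic cell, neutrophil, eosinophil and epithelial marker lists were found in 64 of 79 WT and 69 of 75 KO cells, which left 15 and 6 cells without. All 9 plasma cell genes had UMIs in WT, in 79 of 79 cells, and 4 of 9 had UMIs in KO, in 41 of 75 cells. The 4 were Igkc (17 UMIs in 9 KO cells), Igha (8 in 8), Jchain (2 in 2) and Xbp1. Of the 72 KO UMIs of the list, most were therefore of Xbp1, which is not an antibody gene. Igha, the constant gene of IgA, was found in 75 WT and 8 KO cells, at 709 and 16.9 CPM, and in C1qa macrophages it was at 1272 and 16.5 CPM. Igkc was at 2849 and 36.0 CPM in the selected cells and at 1382 and 20.2 CPM in C1qa macrophages, so these genes also differed in cells that do not make antibody. The dendritic cell list summed to 393 CPM in WT and 1925 CPM in KO, with Xcr1 and Clec9a at 0 by the choice, and Cd209a at 0 in WT. The macrophage list summed to 259 and 332 CPM with C1qa at 0 by the choice and Ms4a7 at 0 in both, the neutrophil list to 31.1 and 339 CPM, and the epithelial list to 199 and 61.4 CPM. In KO, 1 cell held 690 of the 910 UMIs of the dendritic cell list, and 1 held 122 of the 160 of the neutrophil list. Without the 3 mixed cells described below, the list medians went from 2.45 to 0.57 and from 4.08 to 0.70 (3 compared genes each). The part of other cell types' RNA in the differences between T cell genes was not tested.

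Single cells held most of the highest values. By the rule for genes over the whole table, the 5 highest KO to WT ratios (log2) were those of Cxcl2 (72.5 and 580 CPM), H2-Eb1 (2.95), H2-Aa (2.57), Cd74 (2.45) and H2-Ab1 (2.00), and the 5 lowest those of Jchain (-7.14), Igkc (-6.31), Igha (-5.39), Ly6a (-4.01) and Ifng (-3.10). Il17a, at -3.95 with a prior of 1 CPM but found in under 10 cells of either library, was not ranked. In KO, 1 cell with 18932 UMIs held 163 of the 210 H2-Aa and 377 of the 475 Cd74 UMIs with 16 of Cd209a, a dendritic cell gene, and another with 9848 UMIs held 136 of the 274 Cxcl2 and 48 of the 52 S100a8 UMIs. In WT, 1 cell with 18653 UMIs held 890 of the 1101 Igkc and 51 of the 52 Mzb1 UMIs. All 3 cells also had UMIs of Cd3e, Cd3d, Cd3g and Trbc2. Without them, and with a prior of 1 CPM, the log2 ratio was 0.19 for H2-Aa, 0.57 for Cd74 and for H2-Ab1, 1.39 for H2-Eb1, 1.98 for Cxcl2, -3.96 for Igkc and -3.37 for Ly6a. Over the same cells, Ctla4 was at -1.75, Ifng at -3.03, Cd6 at -2.01, S1pr1 at 0.94 and Ifngr1 at 0.73. Ly6a, an interferon-inducible surface antigen, had 79 UMIs in 27 WT cells and 6 UMIs in 3 KO cells, and in C1qa macrophages its ratio was -3.75 (-4.16 to -3.37).

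**Figure D5:**
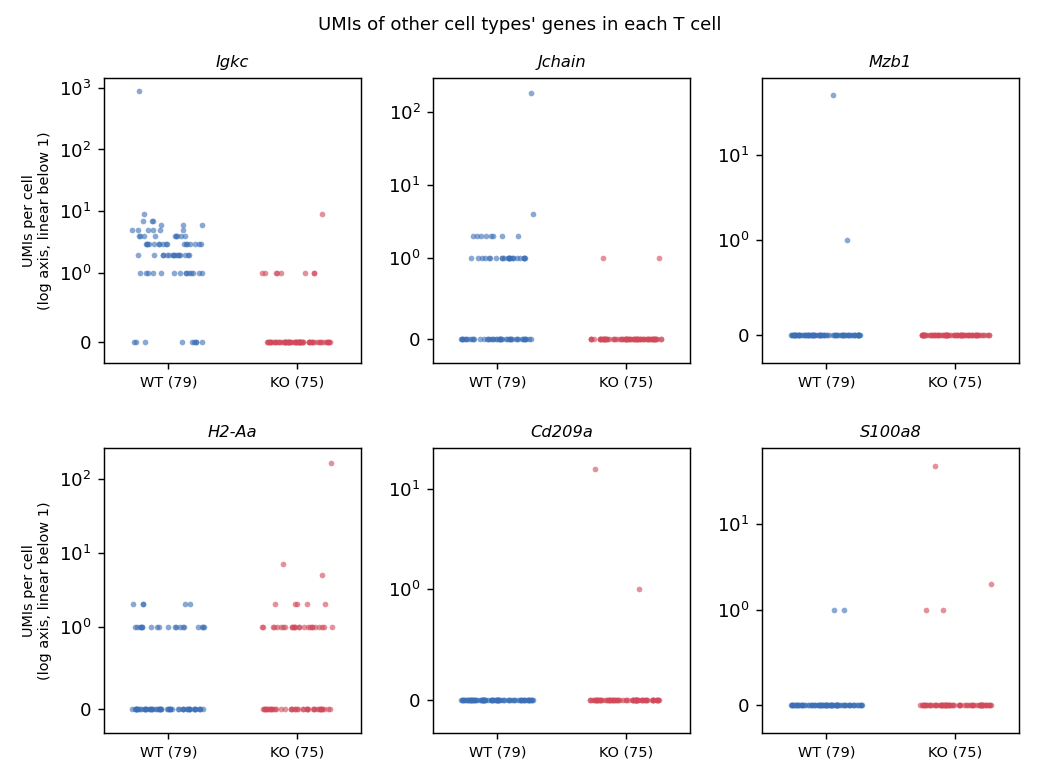
UMIs of plasma cell (Igkc, Jchain, Mzb1), dendritic cell (H2-Aa, Cd209a) and neutrophil (S100a8) genes in each selected T cell, 79 WT and 75 KO, on a logarithmic vertical axis that is linear below 1. The highest points are single cells, with 890 UMIs of Igkc in WT and 163 of H2-Aa and 48 of S100a8 in KO, and most other WT cells hold 1 to 9 UMIs of Igkc.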

How the data were processed

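Single-cell RNA libraries (10x Genomics 3' chemistry) of 1 WT and 1 KO sample were used. The authors deposited raw UMI counts for each gene and barcode, made with Cell Ranger 3.0.2 per the file headers. Seurat 4 and mm10 stand in the submitters' processing notes. The matrices held 3185 WT and 3020 KO barcodes, fewer than the cells the study states for either genotype, and the study's filter left 2597 and 2514. No doublet caller was run. Gene coordinates come from GENCODE M21 (GRCm38), matched by gene identifier.

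The members and lists were chosen with earlier results of these data known. UMIs of the selected cells were summed per library and given as CPM with exact Poisson intervals. Ratios carry exact conditional binomial intervals and shares Clopper-Pearson intervals, all at 95% and for counting error only. Counts past 2-fold and list medians used a prior of 1 CPM and genes whose UMIs in both libraries summed to 20 or more. There were 30 lists with 356 genes, of which 1 matched no feature. Some lists hold genes of others. Named genes are list members with at least 20 UMIs, those with extreme ratios or that give the makeup of the cells, Runx3, and over all genes the 5 highest and 5 lowest ratios with at least 50 UMIs and 10 cells. Il17a, found in 9 WT cells and 1 KO cell, was not ranked over all genes. Genes under 20 UMIs are given as counts, and some list members are not reported here. For cells with a Foxp3 UMI a prior of 10 CPM was used. Cells were thinned to 1000 UMIs with a fixed seed. The interval code was tested on simulated data. Comparison cells were C1qa macrophages (at least 2 C1qa UMIs) and Ms4a1 B cells (at least 2 Cd79a UMIs and 1 of Ms4a1), both without CD3 UMIs. Alternatives changed the cell limits, the weight of cells, the scaling (TMM, edgeR 4.0.16), the prior, the UMI minimum and the thinning depth. Python 3.11.15, numpy 2.4.6, scipy 1.17.1 and pandas 2.3.3 were used.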

Additional observations from a re-analysis of the deposited data

Results flagged for a closer look

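The KO to WT differences of 7 genes went in opposite directions in the selected T cells and in Ms4a1 B cells of the same libraries, which was not tested because there is 1 library per genotype. As the log2 ratio in the T cells minus that in the B cells, S100a8 stood at 10.07 and S100a9 at 9.78, Cxcl2 at 5.82, Cd14 at 5.48, Ier3 at 3.75, Lyz2 at 3.63 and Il1r2 at 3.24. In the main setting all were higher in KO in the T cells and lower in KO in the B cells. In the T cells, Ier3 was at 0.28 without its highest cells and at -0.16 with at least 3 CD3 UMIs (prior of 1 CPM). S100a8 was found in 6 of 140 WT and 2 of 63 KO B cells, and Lyz2 in 16 and 10 of them. The 7 are genes that myeloid cells express strongly. The same KO cell held 48 of the 52 S100a8 and 136 of the 274 Cxcl2 UMIs of the T cells. Of the neutrophil list, which includes S100a8, S100a9 and Il1r2, 1 KO T cell held 122 of 160 UMIs. Without the 3 mixed cells the median of its 3 compared genes went from 4.08 to 0.70. In the T cells Cd14 had 2 and 18 UMIs. Lyz2 had 12 UMIs in 7 WT and 42 in 22 KO T cells, with at most 8 in a KO cell.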

How the results depend on the processing

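The share of selected cells kept its KO to WT log2 ratio within the counting interval under each other limit on cells, and the removal of barcodes in both libraries removed none. The exception was the removal of members with at least 2 UMIs of other cell types' markers, which left 15 and 6 cells, 0.578% and 0.239% of the libraries, and gave a log2 ratio of -1.28 for the share. The count of genes past 2-fold, 639, became 165 under that removal, 378 with a prior of 10 CPM, 165 with at least 50 UMIs per gene and 4593 with no minimum beyond 1 UMI. Without thinning, a Cd4 UMI was found in 32.9% of WT and 22.7% of KO cells and a Foxp3 UMI in 7.59% and 6.67%. At 2000 UMIs the KO Foxp3 share was 5.33%. In the cells left by that removal, which did not count plasma cell genes, the Cd4 shares were 20.0% (3 of 15) and 0 (of 6 cells), and that of Foxp3 in WT was 0. With at least 2 Foxp3 UMIs, 4 of the 10 ranked genes remained.

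In those 15 and 6 cells, log2 ratios changed sign for Cxcl2 (-1.67), Cd74 (-5.80), H2-Aa (-0.37), Ier3 (-5.22), Cd160 (0.61), Gbp2 (0.93), Zap70 (0.93), Vav1 (0.59) and Tcrg-C2 (0.59) among the genes past 2-fold. These genes had 0 to 5 UMIs per library there, with none of Cd74 and Ier3 in KO, and the removal itself used Cd74 and H2-Aa. Cxcr4 (-8.28), Trac (-2.05) and Klf2 (-0.02), within 2-fold before, changed sign too, and Ccr4 and Mki67 had no UMI left in either library. Ier3 was also at -0.16 with at least 3 CD3 UMIs. So few cells decide little for low genes, and the cause was not tested. With at least 1 CD3 UMI, Vav1 (-0.79), Irgm1 (-0.93), Id3 (0.40), Tmem176a (0.53) and Tmem176b (0.44) were within 2-fold. In the main setting, 3 of 5 compared follicular helper genes were at least 2-fold lower in KO, beside 9.56% of all compared genes. None was higher, and the median was -1.08. With at least 50 UMIs per gene, this list rested on fewer genes and its median changed sign, to 0.031. Of the 57 genes followed under the alternatives, 48 were past 2-fold in the main setting. Of these 48, 37 kept their sign and 19 stayed past 2-fold under all 16 alternatives. Leaving out the highest cell of each gene, or the 3 mixed cells, was chosen after the data had been seen. No paired analysis was possible because each genotype has 1 library and the labels give no replicate numbers. The number of cells and UMIs limits the precision, most of all for Foxp3, Il17a and other genes found in under 10 cells of a library.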
